A study of Danio rerio with 12 samples.

Results

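The pronephros is the first kidney of the zebrafish embryo, and 9 of its genes were followed here through moonshine (mon) mutants and their siblings. The genes were pax2a, pax8, wt1a, wt1b, cdh17, slc12a3, slc4a4a, atp1a1a.4 and a copy of slc20a1 named by its identifier, ENSDARG00000020114. They were listed by name or identifier, with earlier results of these data known, and matched 11 of the 32520 gene identifiers in the count table. For pax2a and slc4a4a the naming table gives only the symbol of the vertebrate orthologue (PAX2, SLC4A4). The a and b copies share that symbol, so both identifiers of each were kept and are told apart by identifier. The gene wt1a was the remaining WT1 identifier beside the named wt1b.

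The mon mutation lies in trim33, a chromatin-associated co-regulator of transcription, and mutant embryos lack red blood cells. Fish heterozygous for mon were crossed so that every embryo used carried a single allele of the drl:EGFP reporter, in mutants and siblings alike; drl drives it in the lateral mesoderm. Embryos were sorted into mon and sibling by reduced or normal green fluorescence, so phenotype defines the groups and the sibling pools, labelled wild-type/het, mix both genotypes. Whole embryos were pooled, 30 to a library and all from the same clutch, and there were 4 groups of 3 libraries. The groups at 22 hours post fertilization (hpf) were mon and sibling from clutches 9, 11 and 13, and those at 30 hpf were mon and sibling from clutches 3, 4 and 9.

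The pronephros forms from intermediate mesoderm, the strip beside the lateral mesoderm that makes blood and vessels. Transcription factors of the Pax and Wt1 families, among others, mark out this strip and divide it into segments. Podocytes then form the filter at the front end, and behind it the proximal tubule takes back solutes, the distal tubule adjusts salt, and the duct carries the fluid out. The sodium pump powers this transport by keeping sodium low inside the tubule cells. Several of these factors are used elsewhere too: the pax2 genes in the midbrain-hindbrain boundary, optic stalk and ear, pax8 in ear and thyroid, and wt1a in the proepicardium.

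Libraries held 18233320 to 23135676 counted reads and detected 26261 to 26974 genes. Levels are given as CPM, read counts scaled to a common library size with TMM factors. They are not divided by gene length, so they compare libraries and not genes. All 11 identifiers had reads in every library, from 12 reads of the SLC20A1 copy to 3012 of atp1a1a.4. The level of trim33 at 22 hpf was 50.7 to 67.6 CPM in mon and 84.1 to 89.3 CPM in siblings, a log2 fold change of -0.56 ± 0.08 (SE) with an adjusted p of 0.00129 in the edgeR test. At 30 hpf trim33 lay at 71.6 to 72.8 CPM in mon and 75.4 to 77.9 CPM in siblings (-0.08 ± 0.08, adjusted p 1.00), so in the later libraries its RNA level did not serve as a check of the labels. The red cell factor gata1a was at 0.133 to 0.640 CPM in all mon libraries and at 5.97 to 9.97 CPM in all sibling libraries. In whole embryos fewer cells of a type and less RNA per cell cannot be told apart.

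The first comparison was mon against sibling at each stage. Of the 11 pronephros identifiers, the SLC20A1 copy alone was called in mon at 22 hpf, 1 of 11, and it fell. In that comparison 0.445% of the 21778 genes tested were called at an adjusted p under 0.05, and 0.312% were called lower. The members were listed with earlier results of these data known, so these shares are background and no test of the set. At 30 hpf 0 of 11 were called, against 0.79% of all genes. The edgeR fit with clutch as a block called 1 of 11 at each stage. It called 1.48% of all genes at 22 hpf and 3.09% at 30 hpf. At 30 hpf DESeq2 called 1 of 11, with 230 genes called in all, and limma-voom called 0, with 169 in all. The member called was the SLC20A1 copy each time. At an unadjusted p under 0.05 there were 3 of 11 at 22 hpf, where 4.29% of all genes reached that level, and 1 of 11 at 30 hpf, where 5.56% did. The 3 at 22 hpf were the SLC20A1 copy, slc12a3 and SLC4A4 ENSDARG00000013730, with lower fitted levels in mon. The median log2 fold change of the 11 was -0.03 at 22 hpf and -0.02 at 30 hpf, beside 0.0029 and 0.0015 over all genes tested. Libraries of mon and sibling did not overlap for 2 of 11 identifiers at 22 hpf, where 8.45% of all genes did not, and for 2 of 11 at 30 hpf, where 12.3% did not.

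SLC20A1 ENSDARG00000020114 encodes a sodium-dependent phosphate transporter of the PiT family, which in mouse is also needed for red cell maturation. At 22 hpf its level in mon was 0.629 CPM in clutch 9, 0.907 in clutch 11 and 0.644 in clutch 13, while the siblings of the same clutches had 3.51, 3.33 and 2.97 CPM. These values rest on 12 to 20 reads in a mon library and 58 to 69 reads in a sibling library. Every mon library was thus below every sibling library, and the 3 clutches gave similar values within each phenotype. The fitted level was 4.45 times lower in mon, a log2 fold change of -2.15 ± 0.26 (SE, 95% interval -2.71 to -1.60) with an edgeR adjusted p of 0.00018. Within clutches the log2 ratio was -2.48 in clutch 9, -1.88 in clutch 11 and -2.21 in clutch 13. The gene was called in all 13 alternatives run for this comparison, with adjusted p-values from 3.47e-09 to 0.0286.

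At 30 hpf the same gene stood at 4.63, 3.09 and 3.94 CPM in mon of clutches 3, 4 and 9 and at 5.65, 7.26 and 8.0 CPM in their siblings. The ranges again did not overlap, but clutch 3 was closer together than the others, with a log2 ratio of -0.29 beside -1.23 in clutch 4 and -1.02 in clutch 9. The fitted log2 fold change was -0.84 ± 0.21 (adjusted p 0.109 in edgeR, not called). The clutch block gave 0.00376 and DESeq2 0.0324, and the adjusted p ran from 0.00376 to 0.923 over the 13 alternatives. The effect at 30 hpf minus that at 22 hpf was 1.31 ± 0.34 (adjusted p 0.569, and 0.0564 with the block). The fall was therefore called at 22 hpf, and the change of the effect from the earlier to the later stage was not called. Over the same libraries the summed level of 10 red cell marker genes was 12.1 to 14.1 CPM in mon and 326 to 366 CPM in siblings at 22 hpf, and 19.8 to 23.8 CPM and 1665 to 1836 CPM at 30 hpf. Of those 10, 9 were called lower at each stage, and their part in the SLC20A1 result was not tested.

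The other SLC20A1 identifier, ENSDARG00000010641, was called in mon at neither stage. It had 289 ± 11.4 CPM in mon and 272 ± 15.2 CPM in siblings at 22 hpf (SD, n = 3), and 242 ± 11.6 and 229 ± 11.4 CPM at 30 hpf. Mon over sibling gave log2 fold changes of 0.09 ± 0.06 and 0.08 ± 0.06, and whether these differ from that of the first copy was not tested. Reads that fit both copies could be lost or assigned to either by the counting, and how many such reads there were was not tested.

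**Figure D1:**
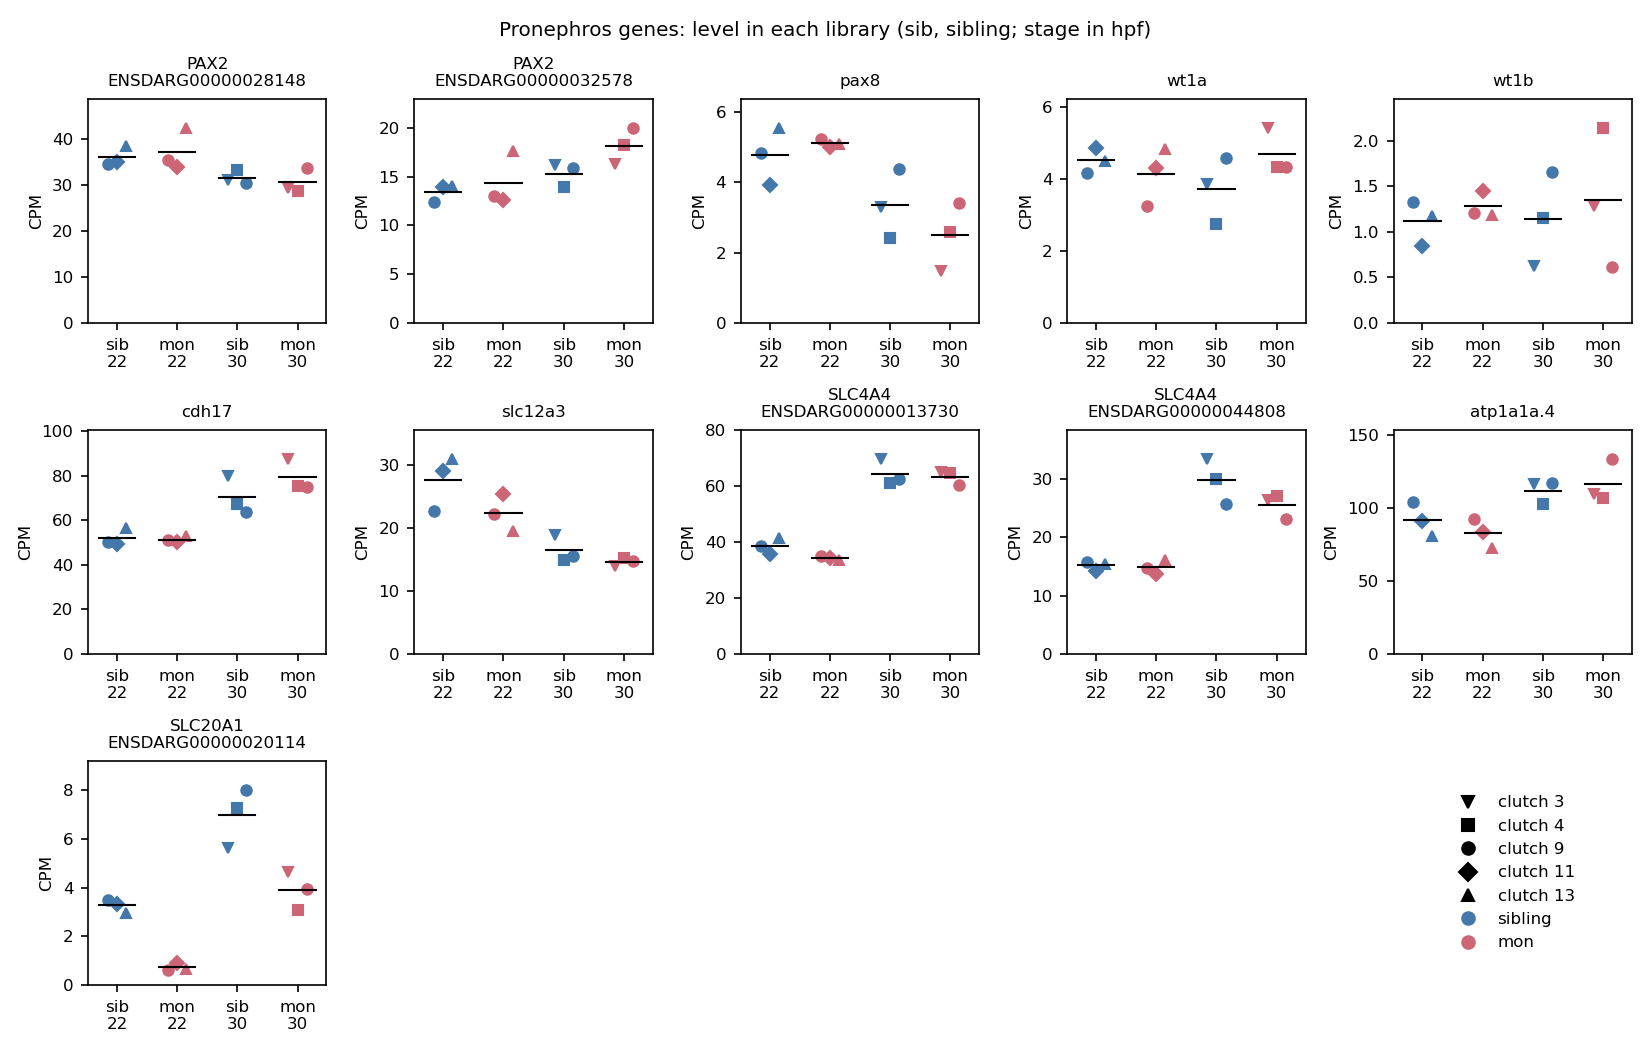
Level in CPM of each pronephros identifier in each of the 12 libraries, with a panel per identifier. Points are libraries, marker shapes are clutches, blue is sibling and red is mon, and the bar is the mean of the 3 libraries. In the SLC20A1 panel the mon points at 22 hpf lie between 0.629 and 0.907 CPM, below all others, while in most panels the mon and sibling points of a stage intermix.

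Among the transcription factors, none of the 5 identifiers was called in mon at either stage. Their log2 fold changes ran from -0.13 to 0.20 at 22 hpf and from -0.42 to 0.33 at 30 hpf. The paired-box factor PAX2 ENSDARG00000028148 had 35.4, 33.9 and 42.4 CPM in mon at 22 hpf (clutches 9, 11 and 13) and 34.6, 35.0 and 38.4 CPM in siblings. Clutch 13 was the highest in both phenotypes, and the ranges overlapped. At 30 hpf it had 29.4, 28.8 and 33.7 CPM in mon (clutches 3, 4 and 9) and 31.1, 33.2 and 30.4 CPM in siblings, again overlapping. The log2 fold changes were 0.05 ± 0.10 (95% interval -0.16 to 0.25) and -0.04 ± 0.10 (-0.25 to 0.16).

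The second PAX2 identifier, ENSDARG00000032578, had 13.0, 12.6 and 17.6 CPM in mon and 12.4, 13.9 and 14.0 CPM in siblings at 22 hpf. At 30 hpf mon lay at 16.3, 18.2 and 19.98 CPM and siblings at 16.2, 13.9 and 15.9 CPM. All mon libraries of the later stage were above all sibling libraries, although in clutch 3 the pair differed by little. The log2 fold change at 30 hpf was 0.25 ± 0.13 with an edgeR adjusted p of 0.972, so it was not called.

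The level of pax8, a paired-box factor that acts with pax2a in the kidney field, was 5.23, 4.99 and 5.10 CPM in mon and 4.83, 3.93 and 5.54 CPM in siblings at 22 hpf. At 30 hpf mon had 1.48, 2.59 and 3.41 CPM and siblings 3.29, 2.4 and 4.38 CPM. The later libraries were widely spread in both phenotypes and overlapped. The log2 fold changes of 0.10 ± 0.26 and -0.42 ± 0.28 were not called, and the second has a 95% interval from -1.01 to 0.17.

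The zinc-finger factors of the podocyte field were not called in mon at either stage. The gene wt1a had 3.24, 4.31 and 4.83 CPM in mon and 4.17, 4.87 and 4.51 CPM in siblings at 22 hpf, and 5.41, 4.32 and 4.34 CPM in mon and 3.87, 2.75 and 4.58 CPM in siblings at 30 hpf. Its paralogue wt1b lay between 0.620 and 2.14 CPM over all 12 libraries, on 14 to 47 reads. The groups overlapped for both genes at both stages. For wt1a the 95% interval of the log2 fold change ran from -0.59 to 0.33 at 22 hpf and from -0.13 to 0.79 at 30 hpf. For wt1b it ran from -0.73 to 1.14 at 22 hpf and from -0.69 to 1.16 at 30 hpf. These intervals hold changes in both directions. How far read depth and the spread between pools set their width was not tested.

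Among the 6 identifiers for tubule adhesion and transport, the SLC20A1 copy was the one called in mon. The cadherin cdh17 joins the epithelial cells of the tubule and duct. It had 51.0, 50.1 and 52.9 CPM in mon and 50.4, 49.3 and 56.4 CPM in siblings at 22 hpf, a log2 fold change of -0.02 ± 0.09 with a 95% interval from -0.21 to 0.17. At 30 hpf it had 87.4, 75.3 and 75.0 CPM in mon and 79.7, 67.5 and 63.6 CPM in siblings. Each mon pool of 30 hpf was above the sibling pool of its own clutch, yet the ranges overlapped since clutch 3 was high in both phenotypes. The log2 fold change was 0.17 ± 0.09, with a 95% interval from -0.01 to 0.36. Its adjusted p was 0.947, or 0.0537 under the clutch block.

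The sodium-chloride cotransporter slc12a3 of the distal tubule had 22.3, 25.5 and 19.5 CPM in mon and 22.7, 29.1 and 31.0 CPM in siblings at 22 hpf. Mon was below its siblings in each of the 3 clutches there, but clutch 9 was nearly level and the ranges overlapped. The log2 fold change was -0.30 ± 0.13 (adjusted p 1.00). At 30 hpf mon had 14.0, 15.2 and 14.8 CPM and siblings 18.98, 14.9 and 15.7 CPM, which overlapped (-0.17 ± 0.14).

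SLC4A4 encodes a sodium-bicarbonate cotransporter that returns bicarbonate from the tubule to the blood. SLC4A4 ENSDARG00000013730 had 35.2, 34.3 and 33.7 CPM in mon and 38.6, 35.9 and 41.6 CPM in siblings at 22 hpf. The ranges did not overlap, but the shift was small, at -0.17 ± 0.08 (adjusted p 1.00). At 30 hpf the phenotypes lay together, with 65.3, 64.7 and 60.4 CPM in mon and 69.7, 61.1 and 62.6 CPM in siblings (-0.02 ± 0.07). SLC4A4 ENSDARG00000044808 had 14.8, 13.8 and 16.0 CPM in mon and 15.8, 14.3 and 15.5 CPM in siblings at 22 hpf, and 26.5, 27.1 and 23.1 CPM and 33.4, 30.1 and 25.8 CPM at 30 hpf. In the later libraries each mon pool was below its siblings, with a log2 fold change of -0.22 ± 0.11 that was not called (adjusted p 0.922).

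The sodium pump subunit atp1a1a.4, the catalytic chain that exchanges sodium for potassium, had 92.7, 83.8 and 72.9 CPM in mon and 104, 91.4 and 80.6 CPM in siblings at 22 hpf. The clutches ranked alike in both phenotypes, and mon was the lower member of all 3 pairs. The log2 fold change was -0.15 ± 0.11, with an adjusted p of 1.00, or 0.162 under the block. At 30 hpf it had 110 CPM in mon of clutch 3, 107 in clutch 4 and 133 in clutch 9, and 116, 102 and 117 CPM in siblings (0.06 ± 0.11). Tandem copies of this gene are similar in sequence, so reads may be shared among them.

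**Figure D2:**
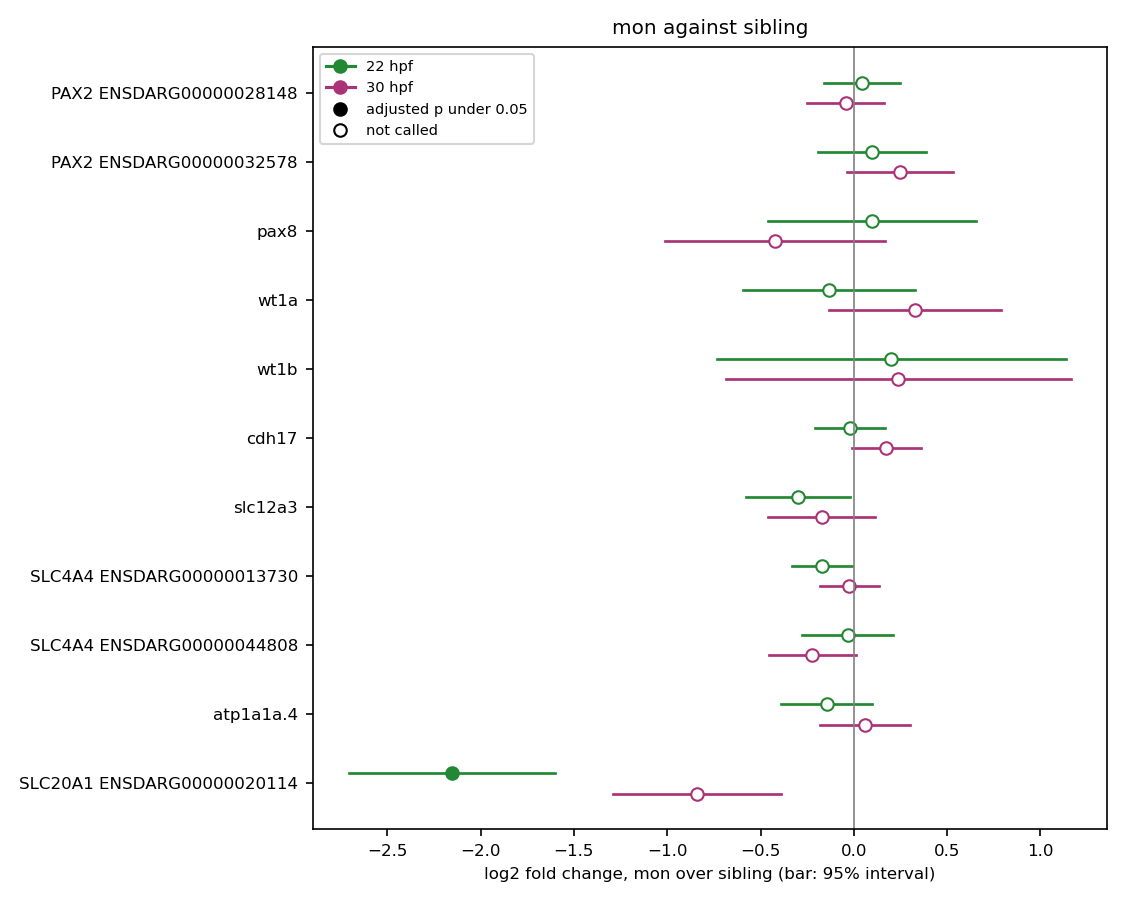
Log2 fold change of mon over sibling (horizontal axis) for each pronephros identifier (vertical axis) at 22 hpf (green) and 30 hpf (purple), from the edgeR fit, with 95% intervals as bars. A filled point is called at an adjusted p under 0.05: the SLC20A1 copy at 22 hpf, at -2.15, is the single filled point.

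For the difference of the mon effect between the stages 0 of 11 identifiers were called, where 0.0872% of all genes were called. At an unadjusted p under 0.05 there was 1 of 11, the SLC20A1 copy, where 3.21% of all genes reached that level. Its difference of 1.31 had a 95% interval from 0.60 to 2.03 and an unadjusted p of 0.00125. The edgeR fit with the block (0.482% of all genes called), DESeq2 (33 genes called in all) and limma-voom (13 genes) also called 0 of 11. Besides the SLC20A1 copy, the fitted differences ran from -0.52 ± 0.38 for pax8 to 0.46 ± 0.31 for wt1a.

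The second comparison was 30 against 22 hpf within each phenotype. Transport and adhesion genes went mostly up, and 2 transcription factor identifiers, pax8 and PAX2 ENSDARG00000028148, were called lower, both in mon. With clutch as a block both of these calls were lost, and the transcription factor then called was PAX2 ENSDARG00000032578, which was higher in both phenotypes. In siblings 4 of the 11 identifiers rose and 1 fell, where 22.4% of all genes rose and 20.7% fell. In mon 5 of 11 rose and 3 fell, where 22.1% of all genes rose and 20.2% fell. Change with stage was common, since 43.1% of all genes were called in siblings and 42.3% in mon. The 5 of 11 called in siblings and 8 of 11 in mon are read against that background, and the 5 are near it. The libraries of the stages did not overlap for 6 of 11 in siblings (52.7% of all genes) and 8 of 11 in mon (51.1%). Of the 5 transcription factor identifiers, 0 rose and 0 fell in siblings, and 0 rose and 2 fell in mon. Of the 6 adhesion and transport identifiers, 4 rose and 1 fell in siblings, and 5 rose and 1 fell in mon. With clutch as a block 7 of 11 were called in each phenotype, beside 42.7% of all genes in siblings and 41.4% in mon. Clutch 9 is the only clutch with libraries at both stages, so that fit rests on it. Within clutch 9 the log2 ratios in siblings and mon were 0.33 and 0.56 for cdh17 and 0.17 and 0.52 for atp1a1a.4. For slc12a3 they were -0.54 and -0.59, for pax8 -0.14 and -0.62, and for the SLC20A1 copy 1.19 and 2.65. PAX2 ENSDARG00000028148 had -0.19 and -0.07, and PAX2 ENSDARG00000032578 had 0.35 and 0.62. For wt1a they were 0.14 and 0.42, and for wt1b 0.33 and -0.96.

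Both SLC4A4 identifiers rose in both phenotypes. For ENSDARG00000013730 the mean went from 38.7 ± 2.83 to 64.5 ± 4.61 CPM in siblings and from 34.4 ± 0.73 to 63.5 ± 2.70 CPM in mon (SD, n = 3). The log2 fold changes were 0.74 ± 0.08 (adjusted p 4.63e-07) and 0.88 ± 0.08 (adjusted p 5.97e-08) in edgeR. For ENSDARG00000044808 the mean went from 15.2 ± 0.79 to 29.8 ± 3.84 CPM in siblings and from 14.9 ± 1.13 to 25.5 ± 2.16 CPM in mon. Both identifiers were called in all 13 alternatives of each phenotype, and within clutch 9 alone their log2 ratios lay between 0.64 and 0.78.

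The tubule cadherin cdh17 rose by a smaller step, 0.43 ± 0.09 in siblings (adjusted p 0.000687) and 0.63 ± 0.09 in mon (adjusted p 1.92e-05). The mean was 52.0 ± 3.82 and then 70.2 ± 8.39 CPM in siblings and 51.3 ± 1.47 and then 79.2 ± 7.09 CPM in mon. The sodium pump subunit atp1a1a.4 rose in mon, from 83.1 ± 9.95 to 117 ± 14.6 CPM (0.49 ± 0.11, adjusted p 0.00297). In siblings it had 92.0 ± 11.8 and 112 ± 8.23 CPM, and its log2 fold change of 0.28 ± 0.11 missed the threshold at an adjusted p of 0.0578. Under the clutch block it passed, at 0.00187. The call in siblings also passed in DESeq2 (0.0436), limma-voom (0.0468) and the fit of the 6 sibling libraries (0.0239), without clutch 9 (0.00945), and without the sibling library of clutch 9 at 22 hpf (0.0162) or of clutch 4 at 30 hpf (0.0436). Only 7 of the 13 alternatives in siblings called atp1a1a.4, with log2 fold changes from 0.20 to 0.38 over the 13.

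The SLC20A1 copy rose in both phenotypes. In siblings the mean went from 3.27 ± 0.27 to 6.97 ± 1.21 CPM (log2 fold change 1.09 ± 0.22, adjusted p 0.000556). In mon it went from 0.727 ± 0.157 to 3.89 ± 0.77 CPM (2.4 ± 0.26, adjusted p 9.46e-07), which is 5.28 times in the fit. The mon libraries of 30 hpf overlapped those of siblings at 22 hpf, so in order of level the groups ran sibling at 30 hpf, mon at 30 hpf together with sibling at 22 hpf, and then mon at 22 hpf.

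The distal cotransporter slc12a3 was the transport gene that went down, from 27.6 ± 4.32 to 16.5 ± 2.16 CPM in siblings (-0.74 ± 0.13, adjusted p 0.00022) and from 22.4 ± 3.01 to 14.7 ± 0.64 CPM in mon (-0.61 ± 0.13, adjusted p 0.00131). It was called in all 13 alternatives of each phenotype.

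For pax8 the fall was called in mon, from 5.10 ± 0.12 to 2.49 ± 0.97 CPM (-1.03 ± 0.27, adjusted p 0.00587), but the block gave 0.0618. In siblings pax8 had 4.77 ± 0.81 and 3.36 ± 0.99 CPM and was not called (-0.50 ± 0.27, adjusted p 0.146). PAX2 ENSDARG00000028148 fell in mon, from 37.2 ± 4.53 to 30.6 ± 2.68 CPM (-0.28 ± 0.10, adjusted p 0.0272). That call was lost with the block (0.199), in the fit of 6 libraries (0.0537), without the mon library of clutch 13 at 22 hpf (0.162), and without that of clutch 3 (0.087) or 4 (0.102) at 30 hpf.

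PAX2 ENSDARG00000032578 was called in neither phenotype, with stage log2 fold changes of 0.19 ± 0.14 in siblings (adjusted p 0.287) and 0.34 ± 0.14 in mon (adjusted p 0.0518). With the block both passed, at 0.026 and 0.00135. In mon it also passed in DESeq2 (0.0425), limma-voom (0.0353), with RLE scaling (0.047), and without the mon library of clutch 13 at 22 hpf (0.00468) or of clutch 3 at 30 hpf (0.0393). Only 6 of the 13 alternatives in mon and 1 of 13 in siblings called this identifier. Without clutch 9 its edgeR adjusted p in mon was 0.356. Neither wt1 gene was called in either phenotype, with log2 fold changes of -0.27 ± 0.22 and 0.19 ± 0.22 for wt1a and 0.03 ± 0.45 and 0.07 ± 0.43 for wt1b in siblings and mon. In both wt1 genes all groups next to each other in level overlapped.

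**Figure D3:**
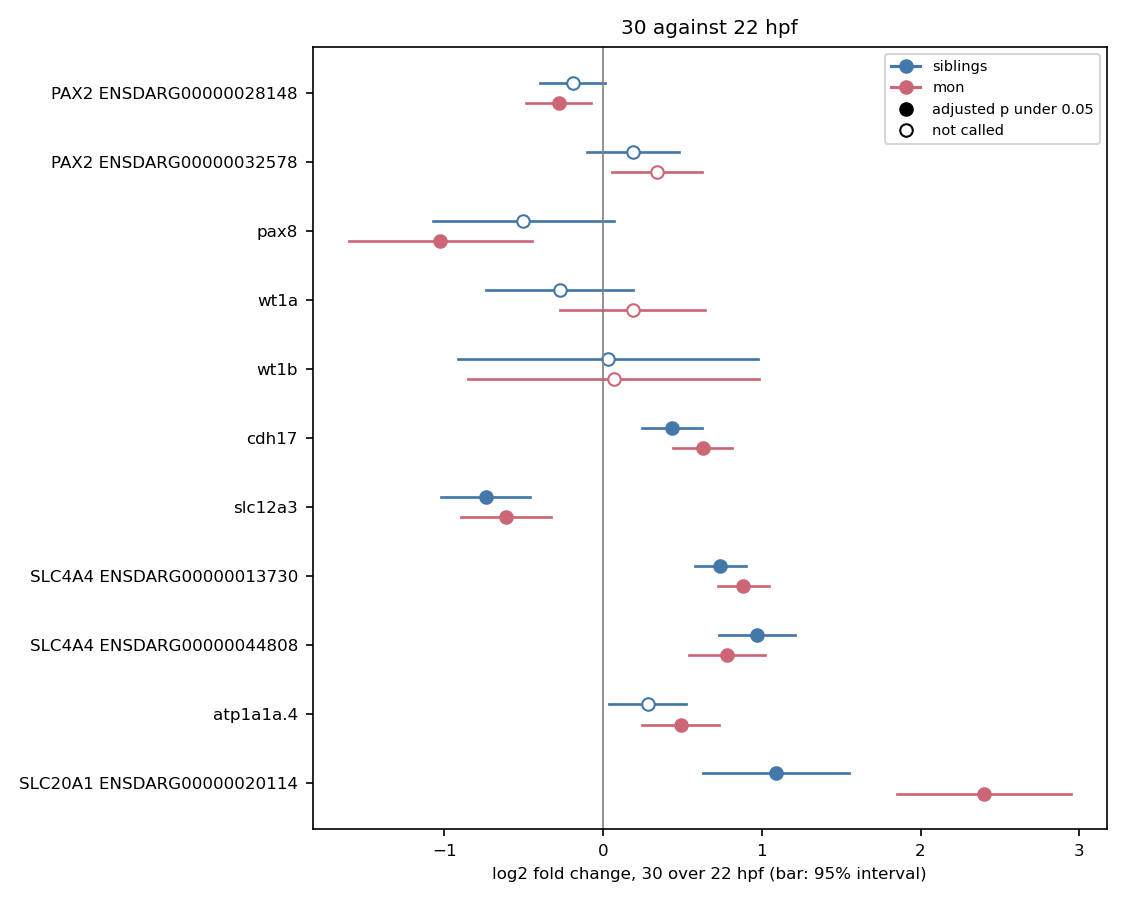
Log2 fold change of 30 over 22 hpf (horizontal axis) for each pronephros identifier (vertical axis), in siblings (blue) and mon (red), from the edgeR fit, with 95% intervals as bars. Filled points are called at an adjusted p under 0.05. The SLC4A4 identifiers, cdh17 and the SLC20A1 copy lie right of 0 in both phenotypes, and slc12a3 left of 0.

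The 11 identifiers were read beside 7 lists of other genes, called kidney lists here. These hold genes used in the nephron and relatives by gene family. Some of their genes act elsewhere, such as the red cell SLC4A1 and the neuronal slc12a5b. The kidney's part in their whole-embryo levels was not tested. In edgeR without the clutch block, no gene was called in mon at either stage in 5 of these lists. They were patterning factors (30 tested), podocyte and glomerulus genes (24), proximal tubule transport and endocytosis (31), distal tubule and duct (20) and sodium pump subunits (16). The block did call genes of the proximal, distal and pump lists, as given below. The median log2 fold changes of these 5 lists lay between -0.10 and 0.04 at 22 hpf and between -0.08 and 0.03 at 30 hpf, beside medians of 0.0029 and 0.0015 over all genes. At an unadjusted p under 0.05 there were 9 of their 121 genes at 22 hpf and 5 at 30 hpf in edgeR, beside 4.29% and 5.56% of all genes. In the list of slc4, slc12 and slc20 relatives, 1 of 23 was called lower at each stage. Of all genes 0.445% were called at 22 hpf and 0.79% at 30 hpf. The clutch block called 1 higher and 4 lower at 22 hpf (1.48% of all genes called) and 2 higher and 2 lower at 30 hpf (3.09%). The gene called without the block was SLC4A1 ENSDARG00000012881, the chloride-bicarbonate exchanger of the red cell membrane. It had 0.207 CPM in mon against 16.5 in siblings at 22 hpf, and 0.396 against 198 CPM at 30 hpf.

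In the list of multiciliated cells and cilia, which drive the fluid along the tubule, 1 of 25 was called higher in mon at 30 hpf. Of all genes 0.79% were called in that comparison. The clutch block called 1 higher and 1 lower, where it called 3.09% of all genes. FOXJ1 ENSDARG00000101919, the master factor of motile cilia, had 19, 21.2 and 18.03 CPM in mon (clutches 3, 4 and 9) and 12.1, 13.1 and 13.8 CPM in siblings. All mon libraries were higher, and the log2 fold change was 0.58 ± 0.11 (edgeR adjusted p 0.0131). The call was lost without mon of clutch 4 (adjusted p 0.108), sibling of clutch 3 (0.101) or sibling of clutch 4 (0.064). At 22 hpf its mean was 21.8 CPM in both phenotypes. The gene called lower with the block at 30 hpf was NOTCH1 ENSDARG00000103554, with 576 CPM in mon against 653 in siblings. Its log2 fold change was -0.18 ± 0.04. The adjusted p was 0.0672 in edgeR without the block, 1.2e-05 with it, 0.0299 in DESeq2 and 0.0383 in limma-voom.

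With clutch as a block, 4 genes of the proximal list, 1 of the distal list and 3 of the pump list were called lower in mon at 22 hpf. That fit called 1.48% of all genes. The endocytic adaptor dab2 was among them, with 3.97 CPM in mon against 6.70 in siblings (-0.75 ± 0.17, adjusted p 0.0605 without the block and 0.00017 with it, and 0.00607 in DESeq2). The anion exchanger SLC4A2 ENSDARG00000028173 was at 38.3 and 56.4 CPM (-0.56 ± 0.13, adjusted p 0.126 and 1.31e-11, and 0.0109 in DESeq2). The pump subunit atp1a1a.2, a tandem relative of atp1a1a.4, was at 3.82 and 11.1 CPM (-1.53 ± 0.42, adjusted p 0.489 and 1.5e-14, and 0.0225 in DESeq2), whereas atp1a1a.4 itself had an adjusted p of 0.162 with the block. ATP1B1 ENSDARG00000076833, a beta chain of the pump, was at 11.5 and 17.3 CPM (-0.58 ± 0.13, adjusted p 0.091 and 1.83e-06, and 0.0126 in DESeq2). At 30 hpf the block called 1 gene of the proximal list and 3 pump genes lower, with 3.09% of all genes called. Among them was atp1a1a.2 with 76.6 CPM in mon against 115 in siblings (adjusted p 1.03e-10).

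**Figure D4:**
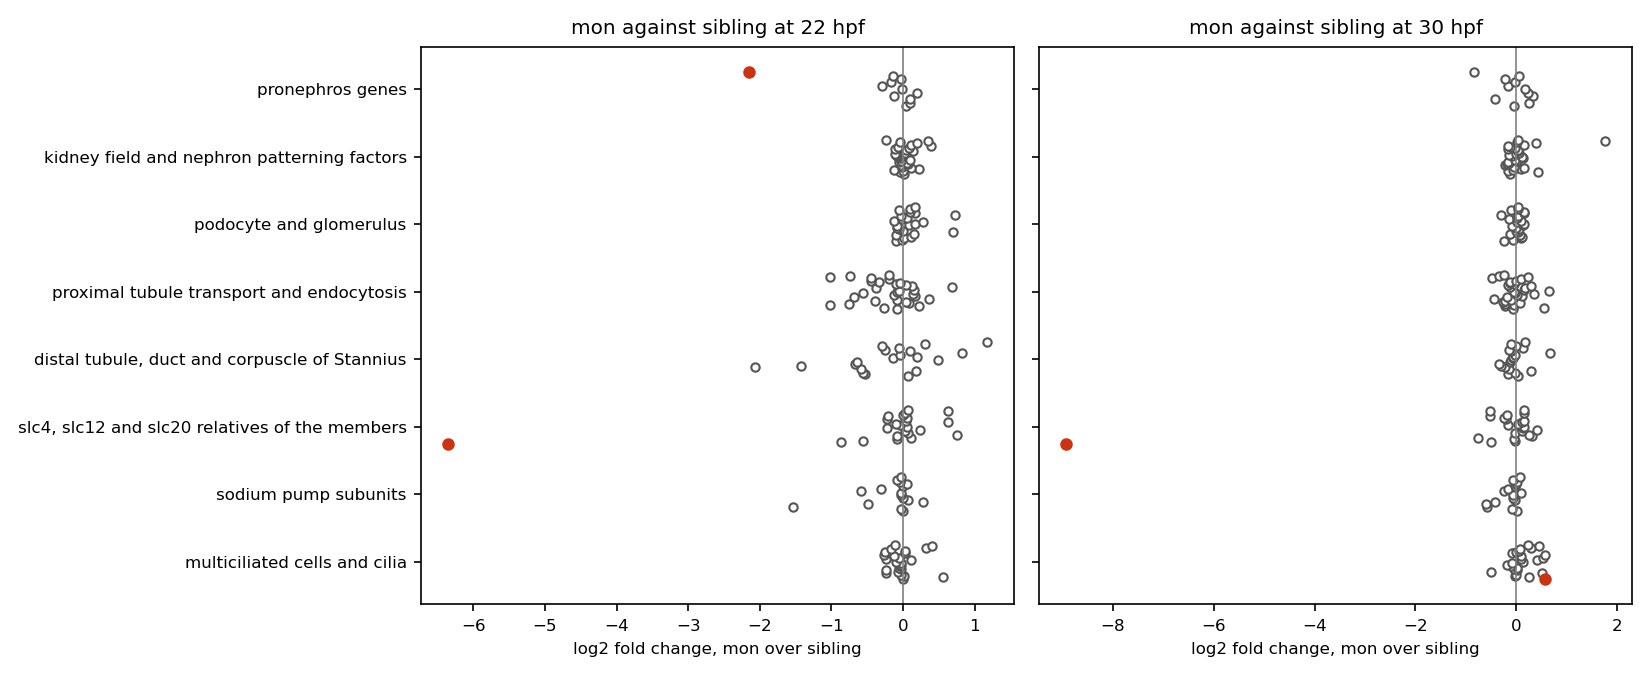
Log2 fold change of mon over sibling for each tested gene of the pronephros set and of the 7 kidney lists, at 22 hpf (left) and 30 hpf (right). Each point is a gene identifier, rows are lists, and red points are called at an adjusted p under 0.05. The called points are the SLC20A1 copy at -2.15, SLC4A1 at -6.35 and -8.93, and FOXJ1 at 0.58.

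Over the stages the kidney lists changed in both directions in siblings, where 22.4% of all genes rose and 20.7% fell. Of the 30 patterning factors tested 11 rose and 6 fell, with lhx1a, a LIM-homeodomain factor of the early kidney, at 2.23 ± 0.17 and the caudal factor cdx4 at -3.88 ± 0.19. Of the 24 genes of the podocyte list 8 rose and 3 fell, such as robo2 at 0.92 ± 0.09 and mafbb at -1.36 ± 0.10. Of the 31 of the proximal list 8 rose and 7 fell. The endocytic receptor cubn rose from 3.15 to 19.6 CPM (2.64 ± 0.14, adjusted p 8.77e-11) and its adaptor dab2 from 6.70 to 24.9 CPM (1.89 ± 0.15, adjusted p 2.04e-08). Of the 20 of the distal list 6 rose and 4 fell, and there slc12a1, the relative of slc12a3 in the early distal tubule, fell, at -1.04 ± 0.13 (adjusted p 3.89e-06). Of the 16 pump subunits 11 rose and 1 fell, with ATP1B1 ENSDARG00000076833 going from 17.3 to 75.2 CPM (2.12 ± 0.13, adjusted p 1.76e-09). Of the 23 slc relatives 7 rose and 4 fell, and of the 25 of the cilia list 4 rose and 7 fell. In mon 22.1% of all genes rose and 20.2% fell. There 11 patterning factors rose and 6 fell, with 6 and 3 in the podocyte list and 11 and 7 in the proximal list. The distal list had 9 and 4, the relatives 7 and 4, the pump subunits 12 and 1 and the cilia list 5 and 4.

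Since several members are used outside the kidney, marker lists of those tissues were read beside them. In edgeR without the block, 0 genes were called in mon at either stage in the lists of midbrain-hindbrain boundary (8 tested), ear (13), thyroid (2), skin ionocytes (12), optic stalk and retina (8), proepicardium and gonad (8), vessels (7) and gut and liver endoderm (8). With the block 1 gene of the midbrain-hindbrain boundary list was called lower at 30 hpf, where 3.09% of all genes were called. At an unadjusted p under 0.05 there were 4 of these 66 genes at 22 hpf and 6 at 30 hpf in edgeR, beside 4.29% and 5.56% of all genes. With stage in siblings, where 22.4% of all genes rose and 20.7% fell, 5 of 8 genes of the midbrain-hindbrain boundary fell and 1 rose (2 and 1 with the clutch block). Their summed level went from 86.5 to 97.4 CPM over the libraries at 22 hpf to 72.9 to 74.8 CPM at 30 hpf. In the ear list 7 of 13 rose and 4 fell, and the summed level was 181 to 210 CPM and then 178 to 182 CPM, so the stages overlapped. In mon, where 22.1% of all genes rose and 20.2% fell, 1 of 8 boundary genes rose and 4 fell, and 6 of 13 ear genes rose and 4 fell. Of 2 thyroid genes, 1 fell in siblings and 2 in mon (0 in each with the block). Of 8 optic stalk and retina genes, 2 rose and 3 fell in siblings and 0 were called in mon. With the block, 2 of these rose and 1 fell in siblings, and 2 rose in mon. These stage counts with the block stand beside 42.7% of all genes called by that fit in siblings and 41.4% in mon, either direction. The part of these tissues in the stage changes of the PAX2, pax8 and wt1 genes was not tested.

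The genes most like cdh17 over the 12 libraries were prkg1a (Pearson r 0.967 of log2 CPM), mgat4b (0.967), LMF2 (0.965), phox2a (0.961) and icn2 (0.961), and 573 of 15509 candidate genes had an r over 0.9. Among those most like PAX2 ENSDARG00000028148 were npm2b (0.946), tdrd15 (0.937), cabcoco1 (0.928) and wnt5b (0.924). For PAX2 ENSDARG00000032578 they were pafah1b2 (0.932), NFYA (0.895), hps3 (0.885), RABL6 (0.880) and egr1 (0.861), with 1 candidate over 0.9. The 12 libraries share clutches and fall into 2 stages, so these values describe likeness of level and no test was made of them.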

How the data were processed

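Ribosomal RNA was removed and strand-specific libraries were made from whole-embryo RNA, per the labels' protocols. The authors deposited raw read counts per Ensembl gene. The submitters' processing notes name TopHat2 2.0.11, HTSeq, Cufflinks 2.2.1, cutadapt and FastQC, and the build GRCz11. The strand setting of the counting is not given in the sources used here, so overlapping, antisense and near-identical genes may share or lose reads. Symbols were found for 89.8% of identifiers.

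The main test was the robust quasi-likelihood F test of edgeR 4.0.16 in R 4.3.3, with TMM scaling and filterByExpr, which left 21778 genes. The 12 libraries and 4 groups were fitted together (8 residual degrees of freedom), and Benjamini-Hochberg adjusted p-values under 0.05 over all genes were called. Standard errors, taken from the log2 fold change and F, are approximate. Alternatives were a clutch block, DESeq2 1.42.0, limma-voom (limma 3.58.1), RLE scaling, no filter, the libraries of a comparison alone, and leaving out clutch 9 or each library.

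Libraries pair by clutch, as labelled: deviations from group means correlated at 0.507 to 0.695 within the 6 clutch pairs (10840 genes) and at -0.19 or below between clutches. Deviations in a group sum to 0 for each gene, so the negative values largely follow from the positive ones and are no added check. No library repeated another of its own group (chi-square per gene 6.46 or more). Pairs of libraries from different groups were not checked in this way.

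The members, lists and tests were chosen with earlier results of these data known. Besides the members, named genes were trim33, gata1a, up to 3 genes of each kidney list with the smallest p in a comparison, and up to 5 genes most like cdh17 and PAX2; the second SLC20A1 copy was added after its values were seen. Some genes that these rules select, 1 of the listed members among them, are not reported here.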

Additional observations from a re-analysis of the deposited data

How the results depend on the processing

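The SLC20A1 copy at 22 hpf kept its direction and call in all 13 alternatives. With the replicate block the genes called in all were 322 at 22 hpf (97 without it), 673 at 30 hpf (172) and 105 for the difference of the effects (19), and 1 pronephros gene was called at 30 hpf (0 without it). DESeq2 called 157 genes at 22 hpf and 33 for the difference. At 30 hpf it called 230 genes, 1 of them a pronephros gene. Without clutch 9 at both stages the counts were 60, 96 and 9. The causes were not tested, and fewer libraries entered the fit without clutch 9. Beyond the calls named above, the block changed no call of a pronephros gene.

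The alternatives gave 1576 gene values, of the pronephros genes and of named kidney-list genes. The kidney-list genes were picked for a small p in the same comparison, so the total does not describe the pronephros genes alone. The other sign was seen in 29 values, all of pronephros genes and 16 of them of wt1b, and 0 of the 29 were called. Without clutch 9 the log2 fold change at 30 hpf was -0.017 for atp1a1a.4. For wt1b the difference of effects was -0.0099 with the block and -0.037 in limma-voom. Its stage change was -0.14 with the block, -0.073 in limma-voom and -0.17 without clutch 9 in siblings, and -0.15 and -0.11 with the block and in limma-voom in mon. For wt1a the block gave 0.031 in siblings.

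Each library was also left out in turn, and ranges are given only for results whose sign changed in at least 1 of these fits. The other pronephros results kept their sign. At 22 hpf the log2 fold change ran from -0.26 to 0.0097 for wt1a, -0.089 to 0.018 for SLC4A4 ENSDARG00000044808 and -0.056 to 0.11 for PAX2 ENSDARG00000028148. There it ran from -0.075 to 0.18 for PAX2 ENSDARG00000032578, -0.020 to 0.22 for pax8 and -0.055 to 0.037 for cdh17. At 30 hpf it ran from -0.12 to 0.00038 for PAX2 ENSDARG00000028148, -0.27 to 0.61 for wt1b, -0.061 to 0.037 for SLC4A4 ENSDARG00000013730 and -0.048 to 0.12 for atp1a1a.4. The difference of effects ran from -0.16 to 0.013 for PAX2 ENSDARG00000028148 and -0.47 to 0.40 for wt1b. The stage change of wt1b ran from -0.34 to 0.33 in siblings and -0.44 to 0.42 in mon. The gene wt1b had 14 to 47 reads a library, and the part of depth in these ranges was not tested.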

Other observations

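Some named genes of the kidney lists are not described above. At 22 hpf the potassium channel KCNJ1 ENSDARG00000088484 had 0.277 CPM in mon against 1.18 in siblings, a log2 fold change of -2.07 ± 0.57 with an edgeR adjusted p of 0.263, 0.00164 with clutch as a block and 0.0484 in DESeq2. The neutral amino acid transporter SLC6A19 ENSDARG00000018621 was at 1.45 and 2.96 CPM (-1.02 ± 0.31, adjusted p 0.410, and 0.0428 with the block). The pump subunit atp1a1a.3 was at 8.87 and 12.5 CPM at 22 hpf and at 15.2 and 23.03 CPM at 30 hpf, called at each stage with the block (adjusted p 0.00691 and 1.39e-05) and not without it (1.00 and 0.740). The retinol carrier rbp4 had 198 CPM in mon against 236 in siblings at 30 hpf (-0.25 ± 0.10, adjusted p 0.750, and 4.4e-06 with the block). In siblings rbp4 rose with stage from 68.9 to 236 CPM (1.78 ± 0.11, adjusted p 7.9e-09), and the pump subunit atp1a3a from 22.9 to 83.7 CPM (1.87 ± 0.11, adjusted p 1.16e-09). The neuronal chloride transporter slc12a5b rose by 2.71 ± 0.24 and SLC12A7 ENSDARG00000062058 by 1.01 ± 0.11.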
